A study of Zea mays with 3 samples.

Results

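The reads examined here were the background of CENH3 chromatin immunoprecipitation along the arms of maize chromosomes 1 to 10, outside the sites where the immunoprecipitation was strong. The members were 1999 of the 2111 bins of 1 Mb on these chromosomes in the coordinates of B73 RefGen_v4. They were chosen by their own values: 30 bins at the chromosome ends (within 1 Mb of an end) were left out, and so were 82 further bins that contained a 10-kb bin with at least 10 times the median of the non-empty 10-kb bins in any of the 3 libraries. The libraries came from young leaves of Zea mays and were precipitated with an antiserum against CENH3, 1 of B73, which the labels call the control, 1 of F3-152 and 1 of F3-600. The labels give F3-152 and F3-600 no genotype beyond these names, and the title of the series says only that the materials had been irradiated. No input library was analysed here, and since each line had 1 library, no test between them was possible.

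CENH3 is the variant of histone H3 that replaces it in the nucleosomes of active centromeres, where the kinetochore is built. Chromosome arms carry ordinary H3, and a ChIP library always contains some reads from such chromatin, which is carried along in the precipitation. In general, the number of such reads in a place depends on how much DNA of that place was in the nuclei, how readily micrococcal nuclease released it, any CENH3 present at a low level, and how much of it can be mapped uniquely to the reference. In maize the gene-rich ends of the arms give way towards the centromere to DNA dominated by retrotransposons, many copies of which are too alike to be mapped uniquely. A line whose sequence differs from the reference also loses reads where its DNA is missing or too divergent to align.

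The member bins held 86.0% of the reads of B73 on chromosomes 1 to 10, 86.5% of those of F3-152 and 87.2% of those of F3-600. This was 6631892 reads from 3846951 fragments in B73, 18125409 from 9286946 in F3-152 and 12590753 from 6492373 in F3-600. The level of a bin is its number of reads per 1000000 reads in all member bins of the library (RPM), counted at the midpoint of each aligned read, so the mean over the bins is 500.2 RPM in every library. The median bin had 3291 reads in B73, 8627 in F3-152 and 6104 in F3-600. In fragments the medians were 1913, 4434 and 3154, which puts the counting error of a bin at 2.29%, 1.5% and 1.78% of its value. All intervals are 95% exact intervals over fragments, cover counting error only and are too narrow where duplicate fragments were present, since these were kept. The instrument in the read names was a different one in each library, and the effect of a line cannot be told apart from that of its run.

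The values on each side of the selection limit were close together. Just inside it, the highest 10-kb bin reached 9.88 times the median in chr2:22000001-23000000 in F3-600, 9.86 times in chr6:91000001-92000000 in F3-600 and 9.32 times in chr5:192000001-193000000 in F3-152. Just outside it were chr4:217000001-218000000 at 10.04 times and chr8:32000001-33000000 at 10.13 times, both in F3-152, and chr6:60000001-61000000 at 10.4 times in B73.

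The background was much more even in B73 than in F3-152 and F3-600. The member bins of B73 had a coefficient of variation of 13.5%, with 401 RPM at the 5th and 608 RPM at the 95th percentile. In F3-152 the coefficient was 33.1%, with 252 and 807 RPM at the same percentiles, and in F3-600 it was 30.6%, with 270 and 763 RPM. In each library this exceeded the counting error several times over. Bins of the B73 library were the highest of the 3 in 790 places and the lowest in 786. The F3 libraries resembled each other: across the 1999 bins Pearson's r between F3-152 and F3-600 was 0.753, compared with 0.436 between F3-152 and B73 and 0.374 between F3-600 and B73. These coefficients describe bins that share the reference, the mapping and the neighbours along a chromosome.

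From the arm ends to the centromere the background increased in every library. The place of a centromere was taken from the B73 domain of CENH3-enriched 10-kb bins on chromosomes 2, 3, 4, 5, 8, 9 and 10. On chromosomes 1 and 6, where B73 had no domain of at least 10 enriched bins, it was taken from F3-152 and F3-600, respectively, and on chromosome 7 from a site of 3 enriched bins. Each arm was divided by length into 10 equal segments, from segment 1 at the chromosome end to segment 10 at the centromere. The 181 bins of segment 1 had a mean level of 455 RPM ± 46.1 in B73, 452 ± 93.8 in F3-152 and 492 ± 83.5 in F3-600 (SD over bins). The 164 bins of segment 10 had 603 RPM ± 71.2, 714 ± 191 and 657 ± 171. The outer level was therefore 0.755 of the inner level in B73 (interval 0.751 to 0.758), 0.634 in F3-152 (0.632 to 0.635) and 0.748 in F3-600 (0.746 to 0.751). The ratio was below 1 on 10 of 10 chromosomes in each library, and it ranged from 0.676 to 0.814 in B73, from 0.457 to 0.768 in F3-152 and from 0.651 to 0.896 in F3-600. The lowest value of B73 was on chromosome 5, and the lowest of F3-152 and of F3-600 was on chromosome 6.

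The shape of the trend differed between B73 and the F3 libraries. In B73 the mean climbed in small steps, from 452 RPM in segment 2 through 477 in segment 5 to 535 in segment 8 and 552 in segment 9. F3-152 stayed between 451 and 478 RPM from segment 1 to segment 8, then reached 597 in segment 9 and 714 in segment 10. F3-600 lay between 458 and 492 RPM over the same 8 segments and reached 582 in segment 9. The F3-152 level was thus 0.886 times that of B73 in segment 8 and 1.18 times in segment 10, and the F3-600 level 0.902 and 1.09 times. Between the F3 libraries, F3-600 was at 1.09 times F3-152 in segment 1 and at 0.921 times in segment 10. The spread between bins also differed along the arm: the coefficient of variation went from 20.7% in segment 1 to 35.0% in segment 8 and 26.8% in segment 10 in F3-152, and from 17.0% to 35.3% and 26.0% in F3-600. In B73 it was 10.1%, 8.04% and 11.8% in these segments, with its highest value of 14.9% in segment 2.

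**Figure D1:**
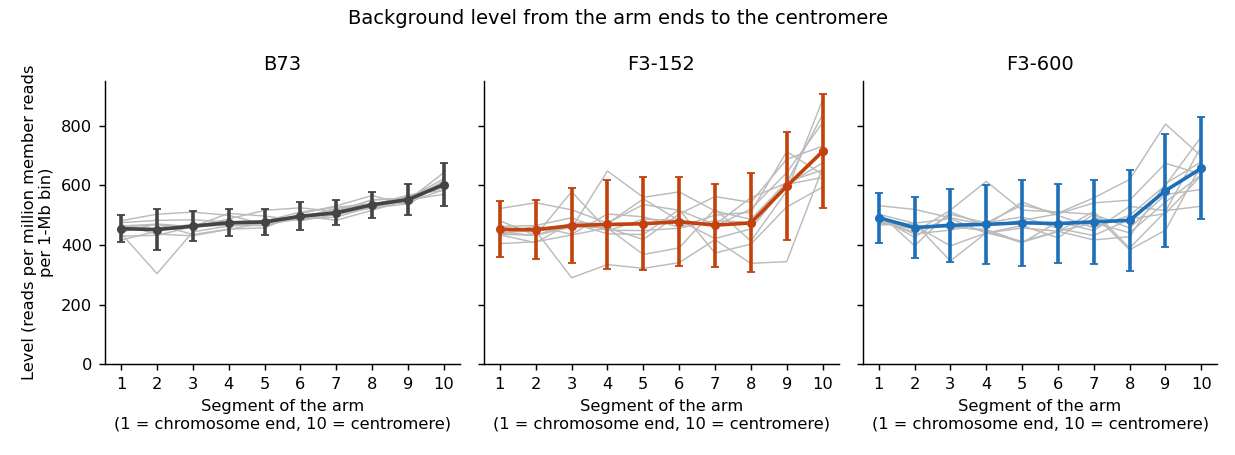
Mean background level (RPM per 1-Mb bin) in 10 segments of the chromosome arms, pooled over both arms, for the 3 libraries; coloured points are means over bins with the SD over bins as bars, and each grey line is 1 of the 10 chromosomes. B73 climbs in small steps from 455 to 603 RPM, whereas F3-152 and F3-600 are level up to segment 8 and reach 714 and 657 RPM in segment 10.

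Measured in distance, most of the increase lay within 40 Mb of the centromere. In B73 the mean was 650 RPM in the 62 bins within 5 Mb, 581 RPM at 5 to 10 Mb, 557 RPM at 10 to 20 Mb, 520 RPM at 20 to 40 Mb and 459 RPM in the 331 bins beyond 100 Mb. In F3-152 it was 759, 681, 589, 480 and 472 RPM in the same classes. In F3-600 it was 691, 653, 563, 487 and 492 RPM. Across the 1999 bins Spearman's rho between level and distance was -0.62 in B73, -0.25 in F3-152 and -0.19 in F3-600, where neighbouring bins are not independent. The 62 bins nearest the centromere adjoin the enriched domains, and the part of CENH3 below the selection limit in their level was not tested.

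Single bins showed how far the background departed from this trend. The lowest bin was the same in all 3 libraries, chr9:75000001-76000000, with 40.7 RPM in B73, 10.2 in F3-152 and 11.7 in F3-600. It had 133 fragments in B73 (interval 111 to 158), 96 in F3-152 (77.8 to 117) and 79 in F3-600 (62.5 to 98.5), and 91, 91 and 93 of its 100 bins of 10 kb had no read. The next lowest bins of B73 were chr8:158000001-159000000 and chr8:159000001-160000000, with 213 and 218 RPM. F3-152 had 357 and 398 RPM in them and F3-600 330 and 421 RPM, compared with lower quartiles over all members of 389 and 398 RPM in these libraries.

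In F3-152 and F3-600 the next lowest bins lay together on chromosome 6. chr6:24000001-25000000 had 514 RPM in B73, 65.7 in F3-152 and 59.7 in F3-600, and its ratios to B73 of 0.128 and 0.116 were the lowest of all member bins in both comparisons. The bin before it, chr6:23000001-24000000, had 502, 86.6 and 70.4 RPM. In these 2 bins the reads of the F3 libraries also had a low mapping quality, the score that an aligner gives for the certainty of a position. Reads at the highest score of 60 made up 72.9% and 64.3% of those of B73 in the 2 bins, 19.5% and 14.9% of those of F3-152, and 20.6% and 12.9% of those of F3-600. The median bin had 59.8%, 57.4% and 56.6%.

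The highest bin of both B73 and F3-152 was chr6:52000001-53000000, 2.78 Mb from the place taken as the centromere, with 1040 RPM in B73, 1207 in F3-152 and 942 in F3-600. One of its 10-kb bins reached 8.69 times the median. In B73 it was followed by chr5:107000001-108000000 with 843 RPM and chr2:94000001-95000000 with 832 RPM, each at most 2.04 Mb from the centromere. In F3-152 it was followed by chr10:16000001-17000000 with 1142 RPM, 35.6 Mb from the B73 centromere, and chr4:111000001-112000000 with 1108 RPM. The 3 highest bins of F3-600 were all on chromosome 3: chr3:70000001-71000000 with 1300 RPM, chr3:81000001-82000000 with 1200 RPM and chr3:69000001-70000000 with 1173 RPM. B73 had 559, 596 and 599 RPM in these, so the ratios were 2.33, 2.01 and 1.96. The highest 10-kb bin in them was at 4.5, 4.23 and 4.22 times the median.

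Next, the lines were compared bin by bin. A bin was counted as different where the ratio of its levels was at most 0.8 or at least 1/0.8. Between F3-152 and B73 this was so for 417 higher bins (20.9%) and 491 lower bins (24.6%), where the same rule over all 2111 bins gave 21.9% and 24.1%. Between F3-600 and B73 there were 380 higher bins (19.0%) and 458 lower bins (22.9%), where all bins gave 20% and 22.7%. Between F3-600 and F3-152 there were 281 higher bins (14.1%) and 231 lower bins (11.6%), where all bins gave 14.5% and 11.8%. The members thus differed about as often as all bins, of which they are the greater part. The median ratio was 0.991, 1.01 and 0.992, respectively. The counting error of a single ratio was 0.04, 0.04 and 0.03 on the log2 scale (SD), below the spread between bins of 0.48, 0.46 and 0.34.

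The direction depended on the place along the arm. In segment 10, F3-152 was higher than B73 in 87 of 164 bins and lower in 18, and F3-600 was higher in 59 and lower in 30. In segment 8, F3-152 was higher in 32 of 208 bins and lower in 87, and F3-600 was higher in 28 and lower in 77. Near the chromosome ends fewer bins differed than over all members. In segment 1, F3-152 was higher in 17 of 181 bins (9.39%) and lower in 27 (14.9%), compared with 20.9% and 24.6% over all members. F3-600 was higher in 32 (17.7%) and lower in 13 (7.18%), compared with 19.0% and 22.9%. Its higher bins were thus nearly as frequent there as over all members. Both comparisons share the B73 library.

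The comparison of the F3 libraries had a different texture from those with B73. From 1 bin to the next, the ratio to B73 moved by a median of 0.26 on the log2 scale in F3-152 and 0.27 in F3-600, and the ratio between F3-600 and F3-152 by 0.13. The log2 ratio between the F3 libraries had the smallest SD of the 3 on 18 of the 20 arms. On the longer arm of chromosome 10, of 93 bins, 0 differed between F3-600 and F3-152 and the SD was 0.10, although 46 of these bins differed between F3-152 and B73 and 42 between F3-600 and B73. The shorter arm of chromosome 8 had 1 of 46 bins different between the F3 libraries, with an SD of 0.14. Their ratios to B73 had 25 and 22 bins past the limit there. Over all members, 45.4% of bins differed between F3-152 and B73, 41.9% between F3-600 and B73, and 25.6% between the F3 libraries. The counts against B73 on both arms were thus not far from the shares of all members. The levels of the F3 libraries moved up and down together from bin to bin on these arms, around a flatter B73.

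**Figure D2:**
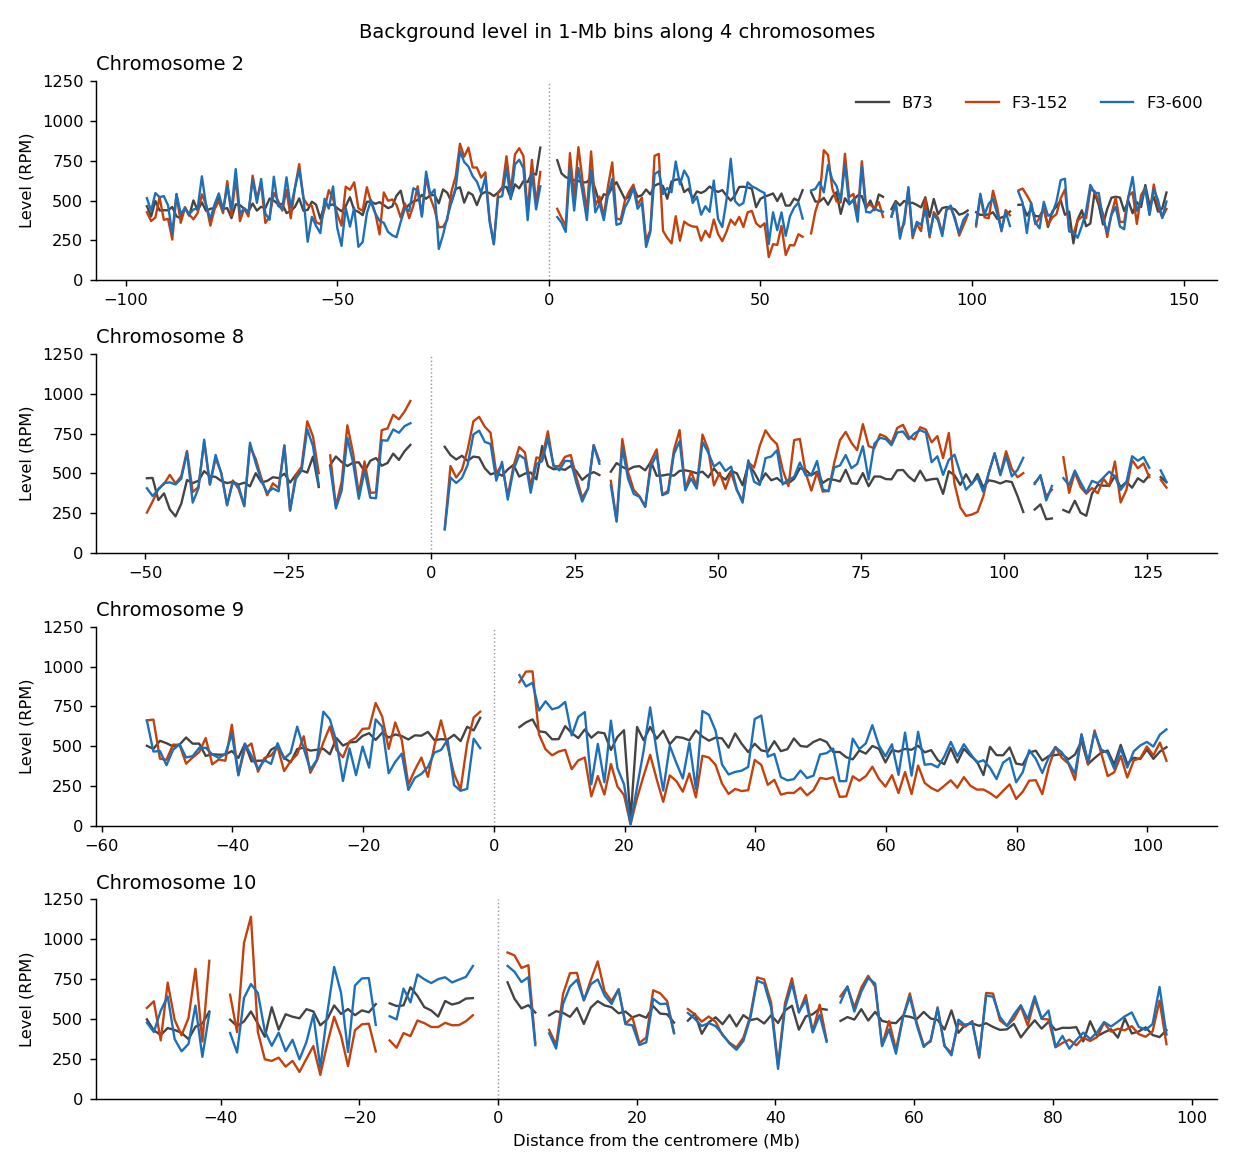
Background level (RPM per 1-Mb bin) of B73, F3-152 and F3-600 along chromosomes 2, 8, 9 and 10 against the distance from the centromere in Mb, with gaps where bins were left out. The F3 libraries follow each other on the longer arm of chromosome 10 and separate on the longer arm of chromosome 9, where F3-152 is the lowest library from 21.9 to 83.9 Mb after the centromere.

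Summed over whole chromosomes, most differences between lines were small. F3-152 was at 0.773 times B73 on chromosome 9 (interval 0.769 to 0.776) and at 1.13 times on chromosome 8 (1.13 to 1.14), and from 0.926 on chromosome 2 to 1.08 on chromosome 4 on the other 8. These were the 2 of 10 chromosomes past a limit of 1.1-fold, where sums over all bins gave 30%. For F3-600 over B73, 0 of 10 chromosomes passed it, where all bins gave 40%. Its lowest ratios were 0.922 on chromosome 7 and 0.925 on chromosome 9, and its highest was 1.09 on both chromosome 3 and chromosome 8. F3-600 over F3-152 was 1.2 on chromosome 9 (1.19 to 1.2) and 0.894 on chromosome 7 (0.891 to 0.897), the 2 past the limit, where all bins gave 30%. On the other 8 chromosomes it ranged from 0.933 on chromosome 5 to 1.08 on chromosome 3. The count of 0 for F3-600 over B73 came to 1 or 2 under several other settings, and 2 of its ratios lay close to the limit.

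Single arms departed further than chromosomes. F3-152 was at 0.677 times B73 over the 101 bins after the centromere of chromosome 9 (0.674 to 0.681) and at 0.951 times over the 52 bins before it. The arm of chromosome 6 before the centromere was at 0.707 times B73 in F3-152 (0.701 to 0.713) and at 0.819 times in F3-600 (0.811 to 0.826), compared with 1.03 and 0.995 after it. F3-600 was at 1.41 times F3-152 on chromosome 9 after the centromere (1.4 to 1.42) and at 1.21 times on chromosome 10 before it (1.2 to 1.22), where the opposite arms had 0.915 and 0.981. On chromosome 7 the arms had nearly the same ratio, 0.893 and 0.894.

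**Figure D3:**
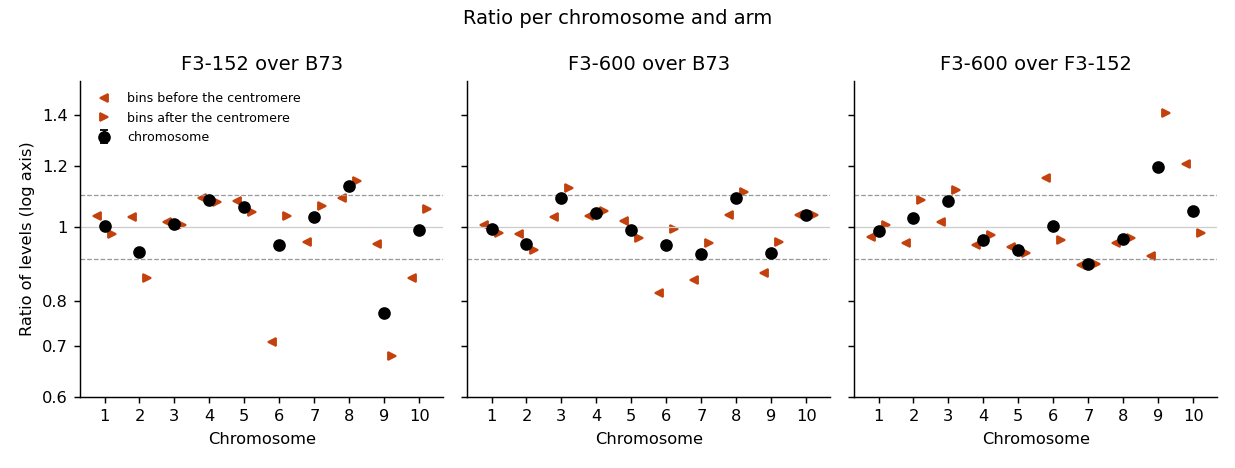
Ratio of background levels per chromosome (black points, with the 95% counting interval, which is smaller than the point) and per arm (triangles) for the 3 pairs of libraries, on a log axis with dashed lines at 1.1-fold. Chromosome 9 stands lowest for F3-152 over B73 (0.773) and highest for F3-600 over F3-152 (1.2), through the arm after the centromere (0.677 and 1.41).

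Differences also came in runs, here at least 5 member bins in succession past this limit in 1 direction. F3-152 over B73 had 14 higher runs with 132 bins (6.60% of the members, 7.06% over all bins) and 11 lower runs with 161 bins (8.05%, and 8.01% over all bins). F3-600 over B73 had 11 higher runs with 85 bins (4.25%, and 4.5%) and 16 lower runs with 100 bins (5.0%, and 5.21%). F3-600 over F3-152 had 9 runs in each direction, with 161 higher bins (8.05%, and 7.77%) and 66 lower bins (3.30%, and 2.98%). The longest run had 20 bins upwards and 43 downwards for F3-152 over B73, 18 and 11 for F3-600 over B73, and 63 and 10 for F3-600 over F3-152.

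The longest run of all was chr9:76000001-139000000, 63 bins on the arm after the centromere in which F3-600 was at 1.61 times F3-152 (1.6 to 1.62). The mean level was 489 RPM in B73, 266 in F3-152 and 429 in F3-600, so that F3-152 was at 0.545 and F3-600 at 0.878 times B73. The ratio between the F3 libraries stayed between 1.29 and 1.84 in all 63 bins, with an SD of 0.12 on the log2 scale, while the ratios to B73 had SDs of 0.37 and 0.45 in the same bins. The run was picked for this ratio between the F3 libraries being at least 1/0.8 in every bin. That rule fixed its floor and can narrow its SD, so the SDs are not on equal terms. A further run of 14 bins, chr9:61000001-75000000, at 1.56 times, was separated from the run of 63 bins by the single, nearly empty bin at 75 Mb described above, which had a ratio of 1.15. In windows of 100 kb the long run ended near position 139300001, where the median of 10 windows went from 1.74 inside to 1.04 outside. The part of this run after 96 Mb was also the longest lower run of F3-152 over B73, chr9:96000001-139000000, with 43 bins at 0.548 (0.543 to 0.554).

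The next was chr10:17000001-49000000, 31 bins before the centromere at 1.58 times (1.57 to 1.59), with 555 RPM in B73, 367 in F3-152 and 580 in F3-600. It met a lower run head on: in chr10:5000001-17000000, with 10 member bins, F3-600 was at 0.672 times F3-152 (0.663 to 0.682), with 468 RPM in B73, 663 in F3-152 and 446 in F3-600. In 100-kb windows the change fell at position 17000001, where the median ratio went from 0.628 in the 10 windows before to 1.56 in the 10 after, with no overlap (0.564 to 0.766 against 1.38 to 1.88). This boundary carries the second highest bin of F3-152, named above, on its lower side. F3-152 was at 1.42 times B73 before the boundary and at 0.662 times after it, and F3-600 at 0.953 and 1.05 times. At the other end of the run of 31 bins, placed at position 50400001, the windows overlapped (1.31 to 1.99 inside, 0.868 to 1.86 outside).

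The third was chr2:123000001-141000000, 18 bins at 1.74 times (1.72 to 1.76), with 563 RPM in B73, 313 in F3-152 and 543 in F3-600. Its start was placed at position 123200001, with a median of 0.851 in the 10 windows before (0.757 to 0.961) and 2.26 in the 10 after it (1.76 to 5.66). At its end, placed at position 140500001, the windows overlapped (1.49 to 2.56 inside, 0.809 to 1.79 outside). The bin with the highest ratio between the F3 libraries, chr2:127000001-128000000, lay inside it, with 633 RPM in B73, 248 in F3-152 and 602 in F3-600, a ratio of 2.43. Against B73 the low level of F3-152 went on to 159 Mb: chr2:123000001-159000000 had 35 bins at 0.557 (0.552 to 0.562), where F3-600 was at 0.919.

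F3-600 exceeded F3-152 by at least 1.5-fold in 157 of the 1999 bins, a limit not counted over all 2111 bins. On chromosome 9 this was so for 58 of 153 bins and on chromosome 10 for 25 of 138. The share was nearer that of all members on chromosomes 2 (23 of 235 bins), 3 (20 of 223) and 6 (17 of 163). Chromosome 7 had 0 of 176. The 88 bins at the inverse of this limit or lower included 23 of the 176 on chromosome 7 and 20 of the 223 on chromosome 3.

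The longest runs in which F3-600 was below F3-152 had 10 bins each. The first, chr7:145000001-155000000, was at 0.608 (0.598 to 0.618), with 469 RPM in B73, 478 in F3-152 and 291 in F3-600. It was bounded on both sides in 100-kb windows, with medians of 1.07 before position 144300001 and 0.684 after it, and of 0.637 before position 155000001 and 1.08 after it. Here F3-152 was at 1.02 and F3-600 at 0.620 times B73. The other, beside the run on chromosome 10, was chr5:89000001-99000000 at 0.730 (0.720 to 0.740), 7.16 to 16.2 Mb before the centromere, with 550, 624 and 456 RPM. The lowest single bin of this comparison was chr5:117000001-118000000, with 492 RPM in F3-152 and 144 in F3-600, a ratio of 0.293, and 561 RPM in B73. Reads at mapping quality 60 were 54.0% of those of F3-152 and 31.0% of those of F3-600 in this bin.

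**Figure D4:**
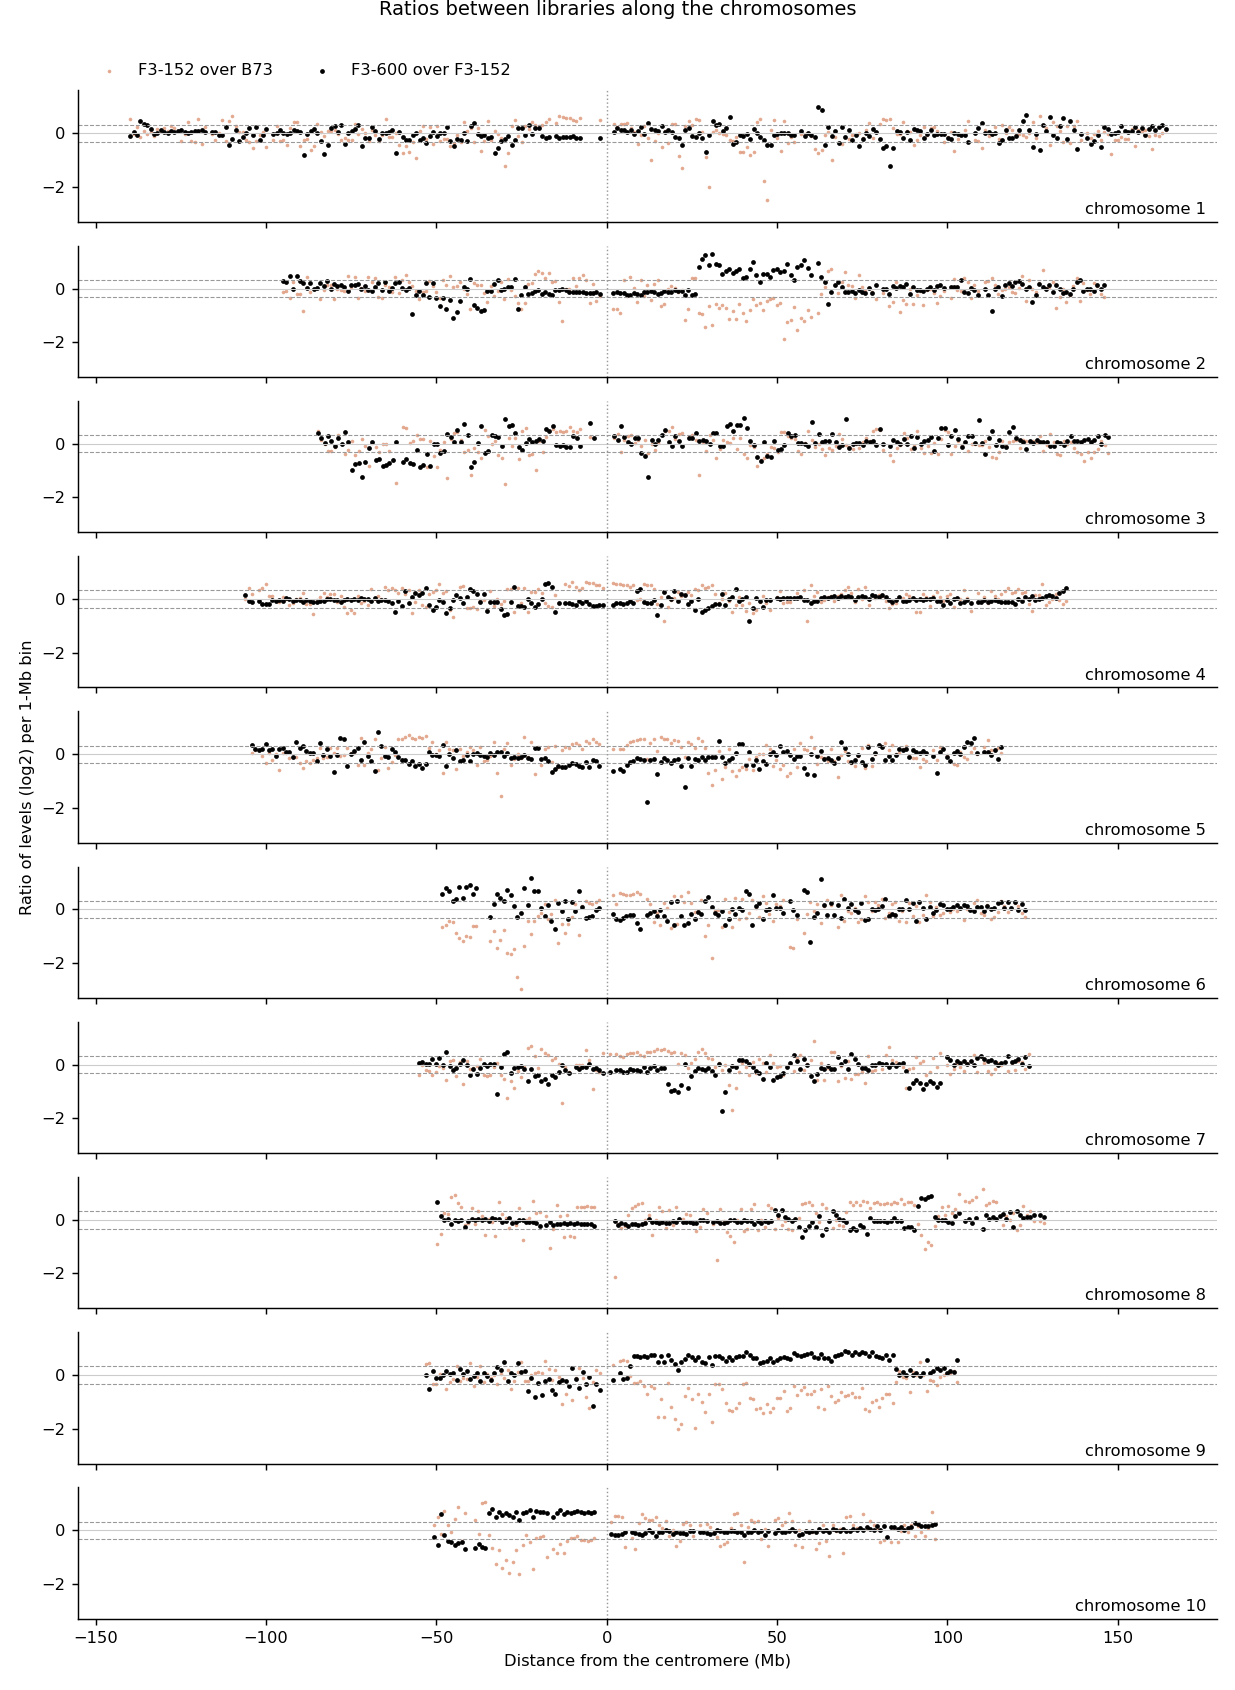
Ratio of levels (log2) in each 1-Mb bin along the 10 chromosomes against the distance from the centromere in Mb, for F3-600 over F3-152 (black) and F3-152 over B73 (orange), with dashed lines at ratios of 0.8 and 1/0.8. The black points form level stretches on chromosomes 7, 9 and 10, at 0.608, 1.61 and 1.58 times, within which the orange points scatter more, whereas in the stretch on chromosome 2, at 1.74 times, both scatter alike (SD 0.26 and 0.29). These stretches were picked by the ratio that the black points show, which can narrow the scatter of those points.

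Against B73, the longest runs in which F3-152 was higher were on chromosomes 8, 7 and 4. In chr8:122000001-142000000, 20 bins 71.3 to 90.3 Mb from the centromere, F3-152 had 724 RPM, F3-600 648 and B73 471, a ratio of 1.54 for F3-152 (1.52 to 1.56) and of 1.38 for F3-600. In the middle of it, chr8:128000001-138000000 was also a higher run of F3-600, with 10 bins at 1.51 (1.49 to 1.54). The F3 libraries were level with each other there, at 0.985. In chr7:62000001-77000000, 15 bins starting 5.85 Mb after the place taken as the centromere, F3-152 had 779 RPM, F3-600 639 and B73 563, a ratio of 1.38 for F3-152 (1.37 to 1.4). In chr4:102000001-118000000, which spans the centromere of chromosome 4, the 14 member bins had 866 RPM in F3-152, 764 in F3-600 and 601 in B73, a ratio of 1.44 (1.42 to 1.46).

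The longest higher run of F3-600 over B73, chr3:68000001-93000000, had 18 member bins on both sides of the B73 centromere, at 1.52 times (1.5 to 1.53) and up to 2.33 times. The mean was 599 RPM in B73, 768 in F3-152 and 909 in F3-600. It contains the 3 highest bins of F3-600, and 7 of its 25 Mb were left out by the selection.

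The run chr8:153000001-166000000 stood apart, because there B73 was low. Its 11 member bins had 270 RPM in B73, 448 in F3-152 and 457 in F3-600, so that both F3 libraries were higher, at 1.66 times (F3-152) and 1.7 times (F3-600; 1.66 to 1.73). On average 27.5 of the 100 bins of 10 kb per Mb were without a read in B73, compared with 3.82 in F3-152 and 3.73 in F3-600. Reads with an aligned length of 101 bp, the most frequent length in each library, made up 70.7% of the B73 reads there, compared with 85.3% in the median bin. It held the 2 low bins of B73 named above and chr8:161000001-162000000, the bin with the highest ratio of F3-152 to B73, with 271 RPM in B73, 602 in F3-152 and 471 in F3-600 (2.22 and 1.74 times).

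The runs in which an F3 library was lower than B73 included the start of chromosome 6. In chr6:1000001-29000000, with 25 member bins, F3-152 was at 0.498 times B73 (0.491 to 0.504), with 479 RPM in B73, 238 in F3-152 and 349 in F3-600. The level of F3-600 ranged from 59.7 to 638 RPM in it and the 10-kb bins without a read were 3.28 of 100 in B73, 5.88 in F3-152 and 6.84 in F3-600. Inside it, chr6:15000001-26000000 was the longest lower run of F3-600, with 11 bins at 0.477 (0.468 to 0.487), and F3-152 was at 0.373 there. The next lower runs of F3-600 had 7 bins each, and there were 4 of them, 2 on chromosome 3 and 2 on chromosome 1. Those on chromosome 1, chr1:79000001-86000000 and chr1:178000001-185000000, were at 0.622 and 0.627, and those on chromosome 3 were further from 1. In chr3:18000001-25000000 the 7 bins were at 0.513 (0.5 to 0.526), with 470 RPM in B73, 371 in F3-152 and 241 in F3-600. In chr3:31000001-38000000 the 7 bins were at 0.607 (0.593 to 0.622), with 498, 428 and 303 RPM.

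Finally, 4 other readouts of the same reads were compared with the level over the 1999 bins. The share of reads with an aligned length of 101 bp varied little among most bins of B73, with 56.6% in the lowest bin, 82.6% at the 5th percentile, 85.3% at the median and 87.3% at the 95th. In F3-152 these percentiles were 64.2%, 74.5% and 82.6%, and in F3-600 67.1%, 78.4% and 87.0%. In the F3 libraries the share went with the level, with Pearson's r of 0.769 (Spearman's rho 0.790) in F3-152 and 0.779 (0.804) in F3-600. In B73 r was 0.284 and rho 0.108. Both measures come from the same reads of the same library.

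When the bins of F3-152 were ordered by this share and divided into 4 groups of 499 or 500, the median ratio to B73 was 0.791 in the group with the lowest share, then 0.908, 1.05 and 1.32. In F3-600 it was 0.774, 0.908, 1.04 and 1.27. The 10th to 90th percentiles of the outer groups overlapped narrowly, with 0.433 to 1.05 and 1.01 to 1.53 in F3-152, and 0.480 to 1.09 and 1.03 to 1.49 in F3-600. The share also increased along the arms, from 69.3% in segment 1 to 81.3% in segment 10 in F3-152, from 73.8% to 85.2% in F3-600, and from 83.8% to 85.8% in B73. In the long run on chromosome 9 it was 85.2% in B73, 72.7% in F3-152 and 77.7% in F3-600, and in the higher run of chromosome 8 from 122 Mb it was 85.3%, 81.4% and 84.9%. Its part in the ratios was not tested.

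**Figure D5:**
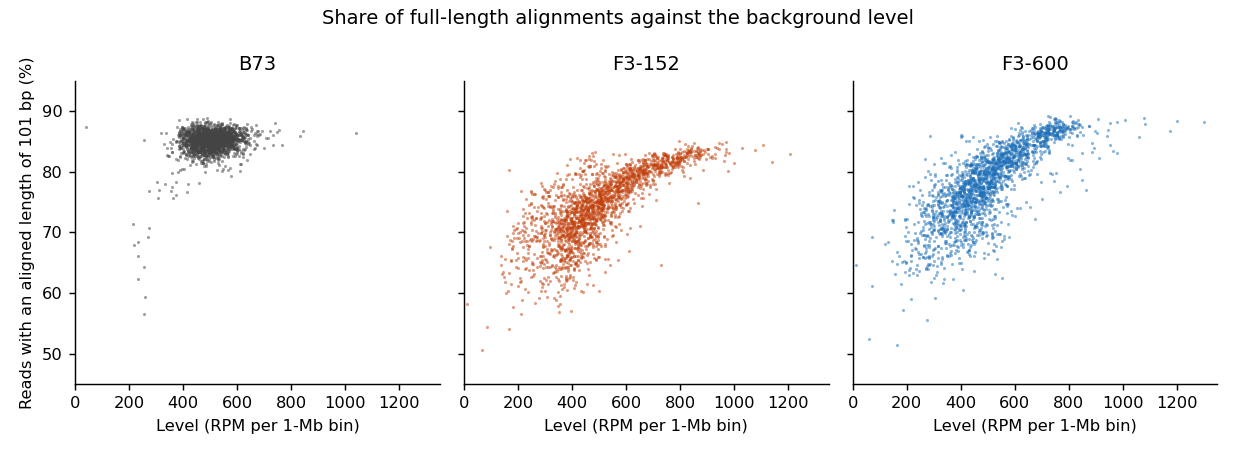
Share of reads with an aligned length of 101 bp (%) against the background level (RPM) in each of the 1999 member bins for the 3 libraries. In F3-152 and F3-600 the share climbs with the level (Pearson's r 0.769 and 0.779), whereas the B73 bins form a single cloud near 85.3% with a few low bins.

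In the F3 libraries the other readouts went with the level less closely. In B73, by Pearson's r, 2 of them, the empty 10-kb bins and the distinct reads, went with it more closely than the aligned length did. By Spearman's rho each of them did in B73, with -0.375 for the empty bins, -0.504 for the distinct reads and 0.339 for mapping quality 60. The share of reads at mapping quality 60 had an r of 0.240 with the level in B73, 0.300 in F3-152 and 0.252 in F3-600. The number of 10-kb bins without a read had an r of -0.45, -0.25 and -0.32. The share of reads that remained when 1 was kept per start, end and strand, which duplicates lower, had an r of -0.38 in B73, -0.11 in F3-152 and -0.02 in F3-600. It was 81.0% in the median bin of B73, 98.6% in F3-152 and 99.0% in F3-600.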

How the data were processed

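The libraries were made from nuclei digested with micrococcal nuclease. By the paper's methods, which describe B73 only, the authors mapped 101-bp paired reads with BWA to B73 RefGen_v4 and kept uniquely mapped reads. The labels name the same build and aligner for all libraries. Each row of the deposited tables is an aligned read, not normalized, with its start, end, strand and mapping quality, a score from 20 to 60. The duplicates were kept.

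The library totals were 7716211 (B73), 21026602 (F3-152) and 14454963 reads (F3-600), of which 79.8%, 96.3% and 96.4% were distinct. Reads were counted by midpoint on chromosomes 1 to 10. The 10-kb medians were 32, 90 and 64 reads, and the length of a chromosome was its highest read end. A domain joined enriched 10-kb bins separated by at most 500 kb. Ratio intervals are Clopper-Pearson intervals over fragments, rescaled to the ratio of reads, and bin counts have exact Poisson intervals. Percentages of bins and of bins in runs given for all bins keep the scaling to member reads, with the left-out bins included. Those of whole chromosomes were instead scaled to the total over all bins. Edges of runs were placed at the split, within 3 Mb of the run's end, that left the least squared deviation of log2 ratios in 100-kb windows with at least 30 reads.

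The regions named are the 3 highest and 3 lowest bins per library, the bins with the extreme ratios, and the 3 longest runs per pair and direction (ties by the more extreme ratio). The members, limits and lists were chosen with earlier results of these data known. The shares of full-length alignments in 4 groups, the spread within runs and arms, the counts per segment and the counts at 1.5-fold per chromosome were added after seeing the values. The run rule was tested on simulated data. The alternatives were other mapping quality limits, distinct reads, fragments, thinning, other selection limits, bin sizes, scalings and folds. Genes, GC content and sequence were not analysed here, since no genome of this build was used. The analysis used SciPy 1.17.1, pandas 2.3.3 and NumPy 2.4.6 in Python 3.11.15, with Matplotlib 3.10.9 for figures.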

Additional observations from a re-analysis of the deposited data

Results flagged for a closer look

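Reads aligned to the mitochondrial and plastid genomes were outside all comparisons. They were 6438 reads or 0.0834% of the B73 library, 71392 reads or 0.340% of F3-152 and 10153 reads or 0.0702% of F3-600, above the limit that a count of 0 allows.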

How the results depend on the processing

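No paired analysis was possible because each line had 1 library. The 12 results gave 141 values under the alternatives. Of these, 40 left the counting interval (ratios) or differed by over 1.5 times (counts). Only the 33 ratios had a direction that could change, and 0 of them did. The 108 counts had none. The outer to inner ratio of F3-152 was the lowest of the 3 libraries under every alternative run, and the order of B73 and F3-600 changed between them. For B73, F3-152 and F3-600 this ratio was 0.782, 0.703 and 0.858 with mapping quality 60, 0.738, 0.616 and 0.705 with bins left out at 20 times the median, 0.765, 0.644 and 0.755 in bins of 2 Mb, and 0.776, 0.655 and 0.709 for bins over 40 Mb against those within 10 Mb. It was 0.768 (B73) and 0.643 (F3-152) with bins left out at 5 times, 0.640 (F3-152) and 0.760 (F3-600) for fragments, 0.655 and 0.764 on chromosomes with a B73 domain, 0.761 for distinct reads of B73 and 0.631 for F3-152 at mapping quality of at least 30. Bins past the limit were 350, 335 and 217 in bins of 2 Mb (36.3%, 34.7% and 22.5% of 965, against 45.4%, 41.9% and 25.6% of the members) for F3-152 over B73, F3-600 over B73 and F3-600 over F3-152, and 327, 310 and 245 at 1.5-fold. Runs were 12, 5 and 10 at 1.5-fold, 66, 75 and 35 from 3 bins and 11, 4 and 7 from 10 bins. Chromosomes past 1.1-fold for F3-600 over B73 went from 0 to 1 with mapping quality 60, fragments or a limit of 5 times, and to 2 with a limit of 20 times or all deposited reads as the total. An addition made after seeing the data recomputed the 18 named runs under 4 read settings, and 18 kept their direction, at 0.761 to 1.15 times their ratio. The settings reuse the reads from which these runs were picked for being past the limit, so a change of direction was unlikely. The causes were not tested. Thinning all libraries to 4472645 fragments kept all 12 results, and depth was lowest in the bin of chromosome 9 with 133, 96 and 79 fragments.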
